A study of Mus musculus with 16 samples.

Results

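The 9 genes described here encode MiT/TFE factors and other transcription factors that set lysosomal and lipid programs in macrophages. They are *Mitf*, *Tfec*, *Tfeb*, *Tfe3*, *Bhlhe40*, *Nr1h3*, *Rxra*, *Pparg* and *Hif1a*, picked out by symbol from the 55385 genes listed in the count table. Earlier results of these data were known when they were chosen. All 9 had enough reads to enter the test, which covered 14513 genes. RNA was sequenced from CD11b+ cells that magnetic beads had pulled from brains freed of meninges and choroid plexus. The 16 libraries came from female mice labelled as 20 weeks old, with 4 libraries in each of 4 genotypes.

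WT mice carried intact *Card9* and no 5xFAD transgenes. *Card9*-/- mice carried a germline deletion of *Card9*, so that all cell types were meant to lack it throughout life. 5xFAD mice carried intact *Card9* and the human transgenes of the 5xFAD line with familial Alzheimer's disease mutations, which neurons express from the *Thy1* promoter. *Card9*-/-5xFAD mice carried both alterations. The comparisons asked how the factors differed with amyloid pathology and whether that difference depended on CARD9, an adaptor protein of innate immune receptors. CD11b is also found on myeloid cells other than microglia, and in bulk RNA fewer cells of a type and less RNA per cell cannot be told apart. The labels do not say that each library was a separate mouse, so the p-values measure the spread between these libraries, which may be partly technical.

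MITF, TFEC, TFEB and TFE3 are basic helix-loop-helix leucine zipper proteins that bind short E-box sequences as dimers. When lysosomal mTORC1 signaling is low, TFEB and TFE3 enter the nucleus and switch on lysosome and autophagy genes, together named the CLEAR network. BHLHE40 is a repressor that binds E-boxes as well. LXRα (*Nr1h3*) and PPARγ (*Pparg*) are nuclear receptors for oxysterols and fatty acids, and each binds DNA together with a retinoid X receptor such as RXRα (*Rxra*). HIF-1α (*Hif1a*) is the oxygen-regulated subunit of HIF-1, which drives glycolytic genes and in macrophages is also raised by inflammatory signals. Many of these proteins are controlled after translation, by phosphorylation, ligands or degradation, so an mRNA level is not a measure of their activity.

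Promoters of 300 bases, from 250 bases before to 50 after a start site, were found in the RefSeq tables of GRCm38.p6 for 8 of the 9 genes (17 promoters), and *Bhlhe40* was not among them. Searched on both strands, the E-box CACGTG was present in 1 of the 17, that of *Hif1a*, against 7.15% of all promoters of that length. Its first base lay 135 bases before the start. The HIF-1 core ACGTG, which every CACGTG also contains, was present in 2 of the 17, those of *Hif1a* and of the first *Mitf* start site, against 19.6% of all promoters. The M-box TCATGTG (3.77% of all promoters), the CLEAR palindrome that extends the E-box (0.326%) and the direct repeats bound by PPAR/RXR (0.0396%) and LXR/RXR (0.0152%) matched 0 of the 17. The promoters of *Hif1a*, which rose with the transgenes and holds the E-box (in capitals), and of *Tfec*, which fell and holds none of these letters, are shown 5′ to 3′ on the strand of the gene because they contrast in both respects. *Hif1a* has its promoter at chr12:73907617-73907916 (plus strand) and *Tfec* at chr6:16898392-16898691 (minus strand). A match in these letters is a description and not a bound site. The pair was picked for this contrast and does not tie the letters to the change.
Hif1a: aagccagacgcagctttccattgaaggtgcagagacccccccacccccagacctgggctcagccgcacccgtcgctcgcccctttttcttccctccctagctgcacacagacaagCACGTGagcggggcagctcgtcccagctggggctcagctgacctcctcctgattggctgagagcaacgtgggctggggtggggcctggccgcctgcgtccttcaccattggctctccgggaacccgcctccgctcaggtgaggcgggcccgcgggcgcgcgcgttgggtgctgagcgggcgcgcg
Tfec: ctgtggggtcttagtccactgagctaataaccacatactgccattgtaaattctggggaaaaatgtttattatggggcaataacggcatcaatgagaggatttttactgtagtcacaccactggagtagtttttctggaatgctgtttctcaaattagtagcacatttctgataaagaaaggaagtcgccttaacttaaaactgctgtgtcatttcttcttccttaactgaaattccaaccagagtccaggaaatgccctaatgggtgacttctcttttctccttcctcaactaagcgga

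Depth ran from 2970148 to 19333325 gene reads a library (median 7944265). The shallowest libraries, *Card9*-/-5xFAD replicate 4 and *Card9*-/- replicate 4, also had the lowest correlations across genes with the other libraries of their genotypes, at 0.856 and 0.790 against 0.873 to 0.984 for the rest. *Card9* itself was counted with 51 to 842 reads in the libraries labelled *Card9*-/- and 27 to 295 in those labelled *Card9*-/-5xFAD, and its level (9.73 to 34.8 CPM) overlapped that of the other libraries (13.6 to 51.3 CPM), so the direction of each *Card9* contrast rests on the labels. CPM gives the reads of a gene relative to the TMM-scaled size of its library. All 8 microglia markers were detected in every library, at a summed level of 11658 to 28999.7 CPM. Across all genes tested, the median log2 fold change was −0.15 in both single transgene contrasts and 0.11 to 0.14 in the *Card9* contrasts, and changes of single genes are given as fitted, without subtracting it.

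Compared per kilobase of exon, *Hif1a* had the highest level of the 9 genes, at 27.4 ± 16.2 CPM per kb (SD, n = 16). *Tfe3* followed at 13.9 ± 5.08 CPM per kb (SD, n = 16). *Tfeb* (6.46), *Bhlhe40* (5.55), *Mitf* (5.28) and *Rxra* (4.20 CPM per kb) came next. *Pparg* (0.674), *Nr1h3* (0.590) and *Tfec* (0.456 CPM per kb) were scarce. Ranges over the 16 libraries overlapped between neighbours in this order except *Rxra* and *Pparg*, where the lowest *Rxra* library (2.32 CPM per kb) lay above the highest *Pparg* library (1.59 CPM per kb).

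With the 5xFAD transgenes, 2 of the 9 factors rose and 2 fell when the effect was averaged over both *Card9* genotypes (8 libraries against 8, edgeR, adjusted p under 0.1). *Hif1a* stood at 2.90-fold (95% interval 2.12 to 3.97) and *Bhlhe40* at 3.53-fold (1.90 to 6.53) the level without transgenes. *Pparg* stood at 0.370-fold (0.235 to 0.584) and *Tfec* at 0.423-fold (0.252 to 0.711). Of all genes tested, 11.3% passed in this contrast, against 4 of the 9 factors. Since the factors were chosen with earlier results of these data known, this is a description and not a test of the set. *Mitf*, *Tfeb*, *Tfe3*, *Nr1h3* and *Rxra* did not pass. Within a single *Card9* background *Hif1a* alone passed, both in 5xFAD against WT, where 2.09% of all genes passed, and in *Card9*-/-5xFAD against *Card9*-/-, where 1.97% passed.

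The libraries that share a replicate number deviated together within each *Card9* background, for all 4 numbers. Across backgrounds the deviations correlated at 0.07 to 0.61 for replicates 2 and 3 but at −0.71 to −0.40 for replicates 1 and 4. A fit with the replicate number as a block within each background, chosen after seeing the data, raised the number of factors that passed from 1 to 6 in 5xFAD against WT, from 1 to 6 in *Card9*-/-5xFAD against *Card9*-/- and from 4 to 7 on average. The share of all genes that passed was then 16%, 20.4% and 41.9%. *Hif1a*, *Bhlhe40*, *Pparg*, *Tfec* and *Tfe3* then passed in all 3 contrasts, *Mitf* in the first and the average, *Tfeb* in the second and the average, and *Nr1h3* and *Rxra* in 0 of them. Because the block was picked from the deviations of these same libraries, its adjusted p-values may be too low. They are not independent support for a factor. Values from this blocked fit are given with each factor where they change a call.

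**Figure D1:**
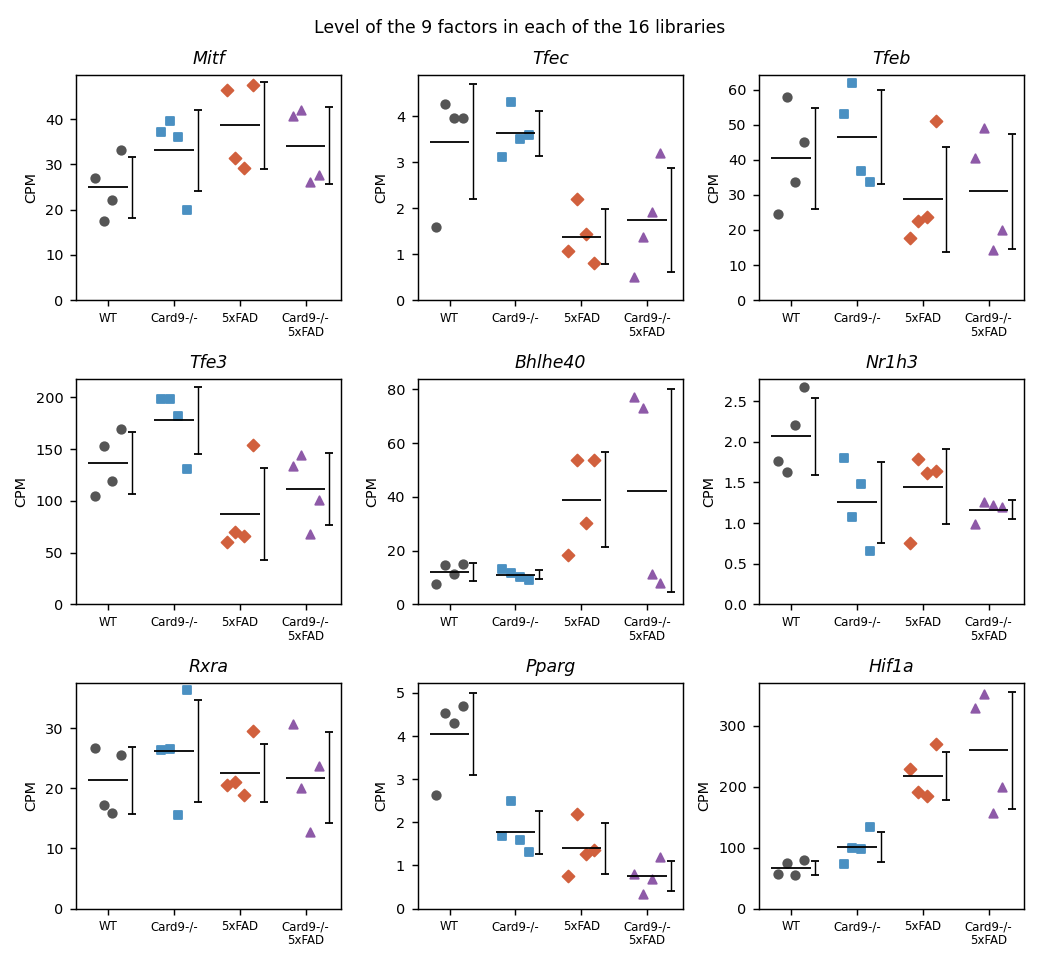
Level of each of the 9 factors in the 16 libraries, in CPM on linear axes that include 0; each point is 1 library, the bar is the mean of the 4 libraries of a genotype and the whisker beside it is the SD. All 8 *Hif1a* values with transgenes (158 to 353 CPM) lie above all 8 without (55.4 to 135 CPM), while *Bhlhe40* splits the *Card9*-/-5xFAD libraries into 2 high and 2 low.

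*Mitf* (chromosome 6, 97807052 to 98021349, plus strand, GRCm38) controls pigment cells, mast cells and osteoclasts besides lysosomes. Its level was 26.9, 17.5, 22.2 and 33.2 CPM in WT and 46.4, 31.4, 29.1 and 47.5 CPM in 5xFAD. It was 37.1, 39.6, 36 and 20.0 CPM in *Card9*-/- and 40.8, 42.1, 26.1 and 27.6 CPM in *Card9*-/-5xFAD. The ranges overlapped in both transgene comparisons. Fitted on the log2 scale, *Mitf* differed by 0.63 (SE 0.29, adjusted p 0.452) in 5xFAD against WT and 0.04 (SE 0.29, adjusted p 0.973) in *Card9*-/-5xFAD against *Card9*-/-. The difference between these responses was −0.59 (SE 0.41, adjusted p 1.00), and the averaged effect was 0.34 (SE 0.21, adjusted p 0.356). In the blocked fit *Mitf* passed in 5xFAD against WT (0.64, adjusted p = 0.0554) and on average (0.34, adjusted p = 0.0672).

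*Tfec* (chromosome 6, 16833373 to 16898441, minus strand) encodes the member of the family found mainly in macrophages. It was counted with 5 to 104 reads per library. Its level was 1.58, 4.28, 3.97 and 3.96 CPM in WT and 3.12, 4.30, 3.5 and 3.60 CPM in *Card9*-/-. With transgenes it was 1.06, 2.19, 1.44 and 0.817 CPM in 5xFAD and 0.493, 1.37, 1.91 and 3.2 CPM in *Card9*-/-5xFAD. WT replicate 1 lay among the transgenic libraries and *Card9*-/-5xFAD replicate 4 among those without transgenes, so the sets overlapped. Fitted on the log2 scale, *Tfec* differed by −1.32 (SE 0.50, adjusted p 0.303) in 5xFAD against WT, −1.16 (SE 0.50, adjusted p 0.351) in *Card9*-/-5xFAD against *Card9*-/- and −1.24 (SE 0.35, adjusted p 0.0472) on average. Without 5xFAD replicate 4 the averaged effect no longer passed (−0.98, adjusted p = 0.131). In the blocked fit both single contrasts passed as well (−1.32, adjusted p = 0.0836 in 5xFAD against WT and −1.33, adjusted p = 0.0670 in the *Card9*-/- background).

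*Tfeb* and *Tfe3* encode the best-known drivers of lysosome formation. *Tfeb* (chromosome 17, 47737030 to 47792419, plus strand) ranged over 24.6 to 58.0 CPM in WT, 33.7 to 61.9 CPM in *Card9*-/-, 17.6 to 50.9 CPM in 5xFAD and 14.4 to 48.9 CPM in *Card9*-/-5xFAD. *Tfe3* (chromosome X, 7762560 to 7775202, plus strand) ranged over 105 to 169 CPM, 131 to 199 CPM, 59.9 to 154 CPM and 67.6 to 144 CPM in the same order. Both overlapped in every comparison of genotypes. The averaged transgene effect on the log2 scale was −0.54 (SE 0.30, adjusted p 0.302) for *Tfeb* and −0.66 (SE 0.24, adjusted p 0.110) for *Tfe3*. The *Tfe3* effect lay close to the threshold: it passed by DESeq2 (−0.60, adjusted p = 0.0788) and in 3 of 16 fits that left out 1 library. Those 3 were without 5xFAD replicate 4 (−0.72, adjusted p = 0.0416), *Card9*-/- replicate 4 (−0.72, adjusted p = 0.0649) and WT replicate 1 (−0.71, adjusted p = 0.0865). In the blocked fit *Tfe3* passed in 5xFAD against WT (−0.73, adjusted p = 0.0576), in *Card9*-/-5xFAD against *Card9*-/- (−0.71, adjusted p = 0.0489) and on average (−0.72, adjusted p = 0.00434). *Tfeb* passed there in *Card9*-/-5xFAD against *Card9*-/- (−0.69, adjusted p = 0.0841) and on average (−0.62, adjusted p = 0.0187).

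The makeup of the MiT/TFE family was set beside the transgenes by the share of each gene in the sum of CPM per kb. *Tfe3* held 55.6 ± 0.844% (SD, n = 4) of the sum in WT, 57.8 ± 2.63% in *Card9*-/-, 43.8 ± 5.03% in 5xFAD and 51.9 ± 2.83% in *Card9*-/-5xFAD. *Mitf* held 15.7 ± 5.00% in WT and 15.9 ± 1.80% in *Card9*-/-, against 31.3 ± 8.65% in 5xFAD and 24.3 ± 3.36% in *Card9*-/-5xFAD. Over libraries, the *Mitf* share ran from 9.27% to 21.4% without transgenes and from 21.8% to 43.4% with them. These sets nearly met, at WT replicate 1 (21.4%) and *Card9*-/-5xFAD replicate 2 (21.8%). How often shares of other genes separate this way was not computed, and *Mitf* CPM itself overlapped. *Tfeb* held 20.0% to 33.7% without and 17.7% to 27.6% with transgenes, and *Tfec* 0.313% to 3.08% over all libraries. Shares of a sum show unequal change and not which gene changed, and they were not tested.

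**Figure D2:**
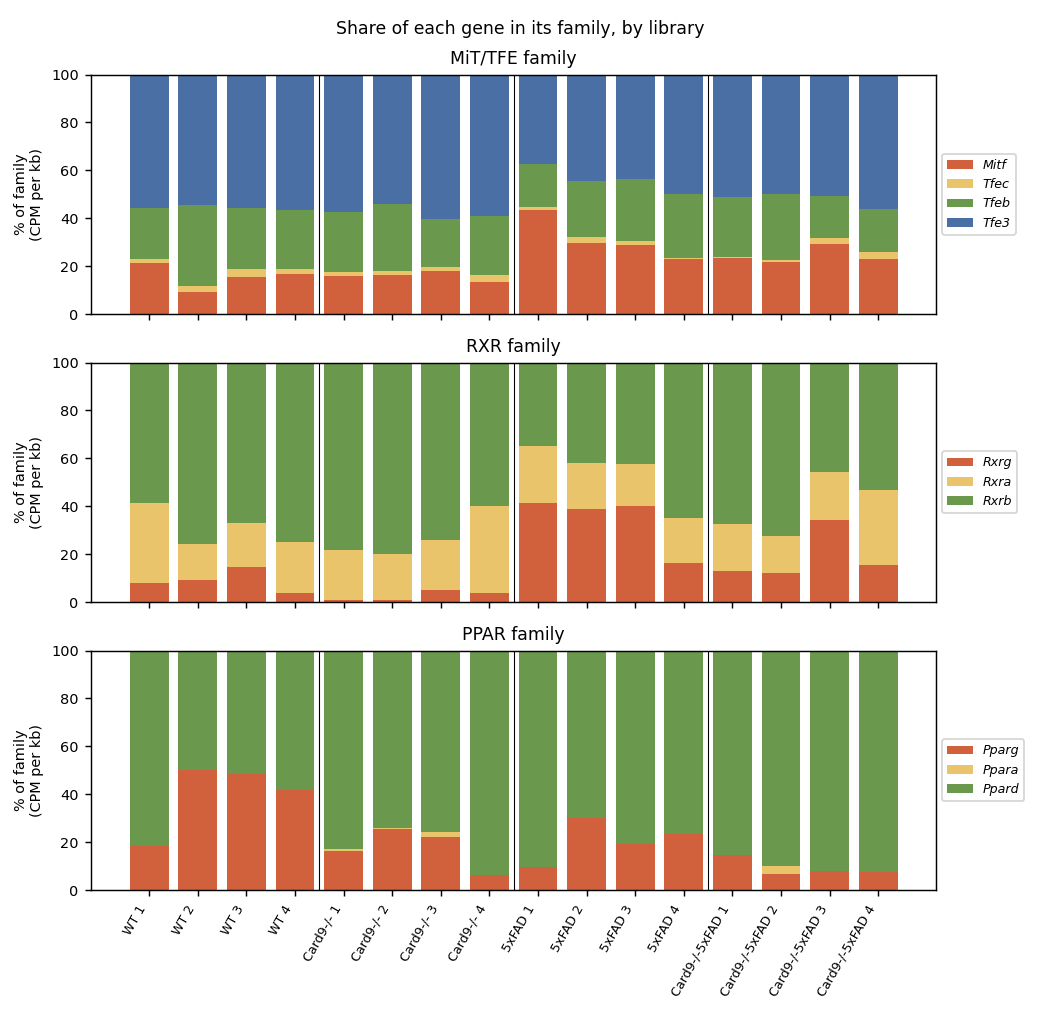
Share of each gene, in percent, in the summed level (CPM per kb of exon) of the MiT/TFE, RXR and PPAR families, stacked for each of the 16 libraries, with lines between genotypes. *Mitf* holds 21.8% to 43.4% in the 8 libraries with transgenes on the right and 9.27% to 21.4% in the 8 without; *Rxrg* and *Pparg* are also drawn against their relatives.

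*Bhlhe40* (chromosome 6, 108660629 to 108666925, plus strand) varied widely within 1 genotype. Its level was 7.57, 14.5, 11.1 and 14.9 CPM in WT and 18.2, 53.7, 30.2 and 53.7 CPM in 5xFAD, without overlap. In *Card9*-/- it was 13.3, 11.5, 10.2 and 9.16 CPM and in *Card9*-/-5xFAD 77.0, 73.1, 11.3 and 8.01 CPM. The first 2 of these *Card9*-/-5xFAD libraries were the highest of all 16, and the last 2 lay within the range of mice without transgenes. Fitted on the log2 scale, *Bhlhe40* differed by 1.69 (SE 0.59, adjusted p 0.246) in 5xFAD against WT, 1.94 (SE 0.60, adjusted p 0.152) in *Card9*-/-5xFAD against *Card9*-/- and 1.82 (SE 0.42, adjusted p 0.0160) on average. Without the 2 shallowest libraries, an alternative chosen after seeing the data, both single contrasts passed (1.71, adjusted p = 0.0840 and 2.23, adjusted p = 0.0591), as they did in the blocked fit (1.63, adjusted p = 0.0250 and 1.47, adjusted p = 0.0403). Its close relative *Bhlhe41* held 60.3% to 97.0% of their sum per kb and did not pass (averaged log2 fold change 0.38, SE 0.29, adjusted p 0.466).

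Markers of border-associated macrophages, the resident macrophages of brain vessels and linings, moved with the transgenes beside *Bhlhe40*, *Tfec* and *Pparg*. The summed level of the 7 markers was 1064 to 1732 CPM in WT, 981 to 1940.2 CPM in *Card9*-/-, 608 to 847 CPM in 5xFAD and 420.3 to 1825 CPM in *Card9*-/-5xFAD, and all 7 were detected in every library. Of the 7, 4 fell with the transgenes on average (*Mrc1*, *Cd163*, *Lyve1* and *F13a1*) and 0 rose, whereas 0 of the 8 microglia markers passed. *Card9*-/-5xFAD replicates 3 and 4, with the lowest *Bhlhe40* of their genotype, had its highest marker sums (819 and 1825 CPM). The sum of 6 choroid plexus markers split the same libraries, at 3.06 and 32.2 CPM in replicates 1 and 2 against 513 and 1129 CPM in replicates 3 and 4. Neutrophil markers summed to 5966 CPM in replicate 4 and 488 to 769 CPM in the other 3. Outside this genotype, choroid plexus and neutrophil sums were 2499 and 6278 CPM in *Card9*-/- replicate 4 and 1612 and 3596 CPM in WT replicate 1. *Bhlhe40* was lowest of their genotypes in these libraries (9.16 and 7.57 CPM). In 5xFAD replicates 1, 3 and 4, choroid plexus sums were 1337, 864 and 599 CPM beside *Bhlhe40* at 18.2, 30.2 and 53.7 CPM. Within genotypes the log2 level of *Bhlhe40* had a correlation of −0.82 with the border-associated macrophage marker sum, −0.70 with that of choroid plexus, −0.61 with that of neutrophils and 0.71 with that of microglia (n = 16 libraries, which share their depth and cell mixture). For *Bhlhe40* it was also −0.68 with astrocyte, −0.57 with endothelial, −0.55 with T or NK cell, −0.53 with monocyte and −0.53 with neuron markers. With oligodendrocyte and B cell markers it was 0.06 and 0.35. The correlation with border-associated macrophage markers was 0.47 for *Tfec*, 0.06 for *Pparg*, −0.30 for *Hif1a*, −0.66 for *Tfeb* and −0.51 for *Tfe3*. It was −0.47 for *Mitf*, −0.28 for *Nr1h3* and 0.05 for *Rxra*. With T or NK cell markers it was −0.76 for *Tfe3* and −0.65 for *Tfeb*. With microglia markers it was 0.69 for *Tfeb*, 0.64 for *Tfe3* and 0.63 for *Nr1h3*. It was −0.23 to 0.25 there for *Mitf*, *Tfec*, *Rxra*, *Pparg* and *Hif1a*. With the sum of 12 early response genes it was 0.65 for *Bhlhe40*, 0.61 for *Tfeb* and 0.53 for *Tfe3*, and −0.21 to 0.38 for the other factors. The part of these cells and of the early response genes in the changes of the factors was not tested.

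**Figure D3:**
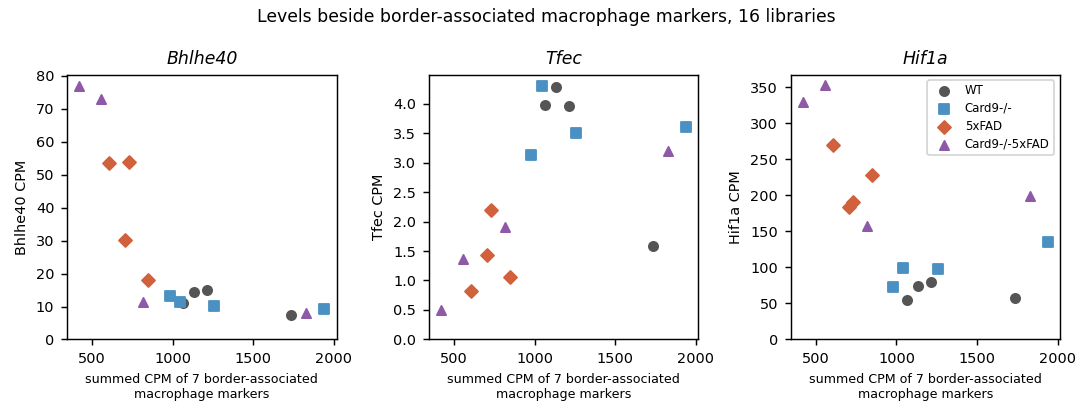
CPM of *Bhlhe40*, *Tfec* and *Hif1a* (vertical axes, from 0) against the summed CPM of 7 border-associated macrophage markers (horizontal axes) in the 16 libraries, by genotype. The 6 libraries with the most *Bhlhe40* (18.2 CPM or more) have marker sums of 420.3 to 847 CPM, and *Hif1a* in *Card9*-/-5xFAD replicate 4 is at 199 CPM beside a marker sum of 1825 CPM.

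*Pparg* (chromosome 6, 115360951 to 115490399, plus strand) rested on 3 to 60 reads per library. Its level was 2.64, 4.54, 4.30 and 4.71 CPM in WT and 0.758, 2.19, 1.26 and 1.36 CPM in 5xFAD. It was 1.68, 2.48, 1.6 and 1.31 CPM in *Card9*-/- and 0.789, 0.342, 0.695 and 1.20 CPM in *Card9*-/-5xFAD. Every WT library was above every library of the other 3 genotypes, and every *Card9*-/- library above every *Card9*-/-5xFAD library. Fitted on the log2 scale, *Pparg* differed by −1.53 (SE 0.42, adjusted p 0.106) in 5xFAD against WT, −1.34 (SE 0.46, adjusted p 0.209) in *Card9*-/-5xFAD against *Card9*-/- and −1.43 (SE 0.31, adjusted p 0.0111) on average. In the blocked fit both single contrasts passed (−1.56, adjusted p = 0.0383 and −1.40, adjusted p = 0.0709). *Ppard*, which encodes the widely expressed PPARδ, held 50.03% to 93.8% of the PPAR sum per kb and did not pass (averaged log2 fold change −0.33, SE 0.33, adjusted p 0.576).

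*Nr1h3* (chromosome 2, 91184061 to 91202834, minus strand) was counted with 2 to 26 reads per library. It ranged over 1.63 to 2.67 CPM in WT, 0.654 to 1.80 CPM in *Card9*-/-, 0.758 to 1.78 CPM in 5xFAD and 0.987 to 1.26 CPM in *Card9*-/-5xFAD. Its averaged transgene effect on the log2 scale was −0.33 (SE 0.28, adjusted p 0.517), with a 95% interval of −0.93 to 0.27. Its paralog *Nr1h2*, which encodes LXRβ, held 86.3% to 97.6% of their sum per kb.

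*Rxra* (chromosome 2, 27676440 to 27762957, plus strand) had the averaged transgene effect nearest to 0 of the 9 genes. It ranged over 15.9 to 26.8 CPM in WT, 15.6 to 36.3 CPM in *Card9*-/-, 18.9 to 29.6 CPM in 5xFAD and 12.7 to 30.7 CPM in *Card9*-/-5xFAD. The averaged effect on the log2 scale was −0.09 (SE 0.22, adjusted p 0.843), with a 95% interval of −0.56 to 0.38. *Rxrg*, which encodes its relative RXRγ, was at 2.64, 4.36, 5.41 and 1.93 CPM in WT and 15.2, 17.7, 18.3 and 10.9 CPM in 5xFAD. *Rxrg* was at 0.480, 0.496, 1.6 and 1.64 CPM in *Card9*-/- and 8.49, 6.5, 9.04 and 4.81 CPM in *Card9*-/-5xFAD, so that neither transgene comparison overlapped. It was also lower without overlap in *Card9*-/- than in WT and in *Card9*-/-5xFAD than in 5xFAD. Ranges did not overlap there for 2.66% and 1.89% of all genes, and *Rxrg* passed in neither *Card9* comparison. *Rxrg* rose in 5xFAD against WT by 2.10 (SE 0.44, adjusted p 0.0202) on the log2 scale, in *Card9*-/-5xFAD against *Card9*-/- by 2.85 (SE 0.48, adjusted p 0.00399) and on average by 2.48 (SE 0.32, adjusted p 0.000157). It held 11.9% to 41.5% of the RXR sum per kb with transgenes and 0.860% to 14.8% without. *Rxrb* held 69.2 ± 7.99% (SD, n = 4) in WT and did not pass (averaged log2 fold change −0.30, SE 0.31, adjusted p 0.600).

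*Hif1a* (chromosome 12, 73901375 to 73947530, plus strand) had the lowest adjusted p of the 9 factors in all 3 transgene contrasts. Its level was 57.2, 74.1, 55.4 and 79.9 CPM in WT and 229, 191, 184 and 269.8 CPM in 5xFAD. In *Card9*-/- it was 73.4, 99.7, 97.1 and 135 CPM and in *Card9*-/-5xFAD 329.6, 353, 158 and 199 CPM. No library with transgenes overlapped one without, which held for 1.66% of all genes tested and for no other of the 9 factors. Fitted on the log2 scale, *Hif1a* differed by 1.71 (SE 0.31, adjusted p 0.00641) in 5xFAD against WT, 1.36 (SE 0.30, adjusted p 0.0375) in *Card9*-/-5xFAD against *Card9*-/- and 1.54 (SE 0.21, adjusted p 0.000323) on average. The call in the *Card9*-/- background was lost without *Card9*-/- replicate 1, 2 or 3 or *Card9*-/-5xFAD replicate 1 or 2 (adjusted p up to 0.152), while the log2 fold change stayed between 1.18 and 1.54. In the blocked fit *Hif1a* passed there with 1.32, adjusted p = 0.00729. *Hif1a* made up 82.7% to 99.7% of the HIF-α sum per kb, and *Epas1*, which encodes HIF-2α, did not pass (averaged log2 fold change −0.84, SE 0.66, adjusted p 0.475).

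Ranges of CPM that did not overlap were seen for 3 factors in 5xFAD against WT (*Hif1a*, *Bhlhe40* and *Pparg*; 8.04% of all genes) and for 2 in *Card9*-/-5xFAD against *Card9*-/- (*Hif1a* and *Pparg*; 7.01% of all genes).

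**Figure D4:**
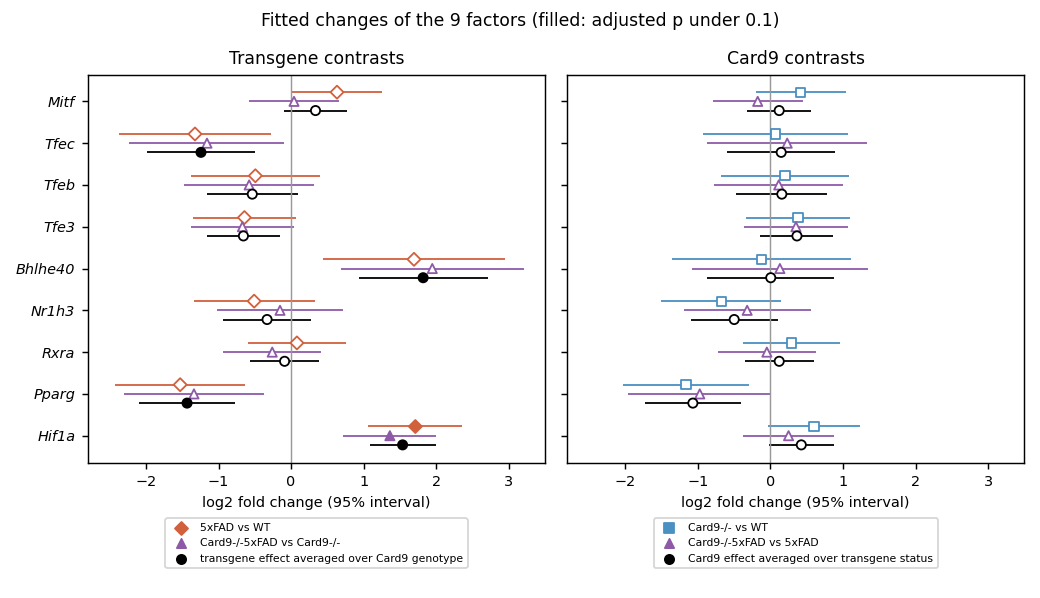
Fitted log2 fold change of each factor with its 95% interval, on the left for the 3 transgene contrasts and on the right for 3 *Card9* contrasts; filled symbols passed at an adjusted p under 0.1. On the left, *Hif1a* is filled in each contrast and *Tfec*, *Bhlhe40* and *Pparg* in the average, and on the right 0 symbols are filled.

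In the *Card9* contrasts, 0 of the 9 factors passed by edgeR and 0 by DESeq2. In the averaged *Card9* effect, however, DESeq2 gave an adjusted p to only 2623 genes. Most of the 9 factors had none there and could not pass. By edgeR, the lowest adjusted p among the factors in *Card9*-/- against WT was 0.970 with 1 factor at an unadjusted p under 0.05, and 0% of all genes passed. In *Card9*-/-5xFAD against 5xFAD it was 0.993 with 0 factors under 0.05, and 0% of all genes passed. In the *Card9* effect averaged over transgene status it was 0.496 with 1 factor under 0.05, and 0.0276% of all genes passed. The interaction of transgenes and *Card9* gave 1.00 with 0 factors under 0.05 and 0% of all genes. Over all 14513 genes tested by edgeR, 597, 366, 1323 and 78 had an unadjusted p under 0.05, in the order of these contrasts. The factor under 0.05 was *Pparg* in both cases, at −1.16 (SE 0.41, adjusted p 0.970) on the log2 scale in *Card9*-/- against WT and −1.07 (SE 0.31, adjusted p 0.496) on average. *Pparg* was the 1 factor whose ranges did not overlap in *Card9*-/- against WT, where 2.66% of all genes did not. There were 0 such factors in *Card9*-/-5xFAD against 5xFAD (1.89% of all genes) and 0 over 8 libraries against 8 (0.0207%). The 95% intervals of the 9 factors in *Card9*-/-5xFAD against 5xFAD reached from −1.96 to 1.34 on the log2 scale. *Rxra* and *Nr1h3* lie on the chromosome of *Card9*, at 1.32 and 64.8 Mb from it, and their averaged *Card9* log2 fold changes were 0.12 (SE 0.22, adjusted p 0.860) and −0.50 (SE 0.28, adjusted p 0.587).

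Genes that the factors work with were read in the averaged transgene effect from 6 lists of known relatives, regulators and targets. The lists were also chosen with earlier results of these data known, so their counts are descriptions. Of all genes, 5.62% rose and 5.73% fell in this contrast. The count of relatives that rose, 1 of 18, lies near the first share. Of 18 tested relatives and partners, 1 rose (*Rxrg*) and 0 fell, with a median log2 fold change of −0.22 against −0.15 over all genes. *Vhl* (−0.43, SE 0.21, adjusted p 0.250), *Egln1* (0.45, SE 0.28, adjusted p 0.355) and *Hif1an* (−0.34, SE 0.22, adjusted p 0.381), whose products mark HIF-α for destruction or blunt its activity, did not pass. Of 19 tested genes of the lysosomal mTORC1 machinery upstream of the MiT/TFE factors, 2 rose and 0 fell, with a median of 0.08. *Rragd*, a Rag GTPase of the lysosome surface, was at 1.18 to 2.64 CPM without and 7.21 to 15.6 CPM with transgenes (log2 fold change 2.64, SE 0.26, adjusted p 1.08e-05). *Lamtor1*, a Ragulator subunit that anchors the Rag GTPases, also rose (0.69, SE 0.22, adjusted p 0.0782), and *Lamtor5* (0.94, SE 0.35, adjusted p 0.119) and *Rptor* (−0.53, SE 0.21, adjusted p 0.147) did not pass.

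Of 33 CLEAR network genes, 9 rose and 2 fell with a median of 0.41. *Gpnmb*, a lysosomal glycoprotein, was at 0.214 to 2.98 CPM in the 8 libraries without transgenes and 23.6 to 231 CPM in the 8 with them (log2 fold change 6.66, SE 0.54, adjusted p 1.19e-06). *Atp6v0d2*, a subunit of the proton pump, was at 0.0856 to 0.704 CPM against 4.00 to 33.0 CPM (5.38, SE 0.46, adjusted p 2.01e-06). *Gla*, α-galactosidase A, was at 5.04 to 10.1 CPM against 14.8 to 58.0 CPM (2.29, SE 0.26, adjusted p 3.35e-05), and *Gusb*, β-glucuronidase, also rose (1.14, SE 0.25, adjusted p 0.0127). The 2 genes that fell, the lysosomal sulfatase gene *Sgsh* (−1.04, SE 0.34, adjusted p 0.0753) and the autophagy gene *Uvrag* (−0.50, SE 0.17, adjusted p 0.0881), are named here after their values were seen.

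Of 17 tested LXR/RXR targets, 4 rose and 0 fell with a median of 0.39. *Lpl*, lipoprotein lipase, was at 41.9 to 65.4 CPM without and 561 to 1487 CPM with transgenes (log2 fold change 4.36, SE 0.23, adjusted p 7.31e-09). *Apoe*, the main lipid carrier of the brain, was at 2218 to 4695 CPM against 4878 to 13481 CPM (1.53, SE 0.24, adjusted p 0.000822). *Scd2*, a fatty acid desaturase (0.95, SE 0.22, adjusted p 0.0161), and the apolipoprotein gene *Apoc4* (3.38, SE 0.83, adjusted p 0.0231) rose as well. The cholesterol exporters *Abca1* (−0.41, SE 0.19, adjusted p 0.213) and *Abcg1* (0.20, SE 0.30, adjusted p 0.735), well-known LXR targets that are also named after their values were seen, did not pass.

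Of 12 tested PPARγ targets, 3 rose and 1 fell with a median of −0.11. *Lpl*, which both lists hold, *Plin2*, a coat protein of lipid droplets (0.83, SE 0.27, adjusted p 0.0782), and *Ucp2*, a mitochondrial carrier (0.82, SE 0.28, adjusted p 0.0966), rose. *Cd36*, a scavenger receptor and fatty acid transporter, fell (−1.28, SE 0.28, adjusted p 0.0111), from 23.8 to 78.1 CPM without to 10.5 to 32.8 CPM with transgenes.

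Of 23 tested HIF-1 targets, 8 rose and 0 fell with a median of 0.78, the highest of the 6 lists. *Egln3*, a prolyl hydroxylase gene that HIF-1 induces, was at 0 to 2.78 CPM without and 12 to 69.1 CPM with transgenes (log2 fold change 4.61, SE 0.50, adjusted p 2.12e-05). The glycolytic enzyme genes *Tpi1* (1.73, SE 0.33, adjusted p 0.00501) and *Aldoa* (1.37, SE 0.28, adjusted p 0.00651) rose, as did *Ankrd37* (1.42, SE 0.33, adjusted p 0.0156). In the *Card9* contrasts and the interaction, 0 genes of the 6 lists passed.

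**Figure D5:**
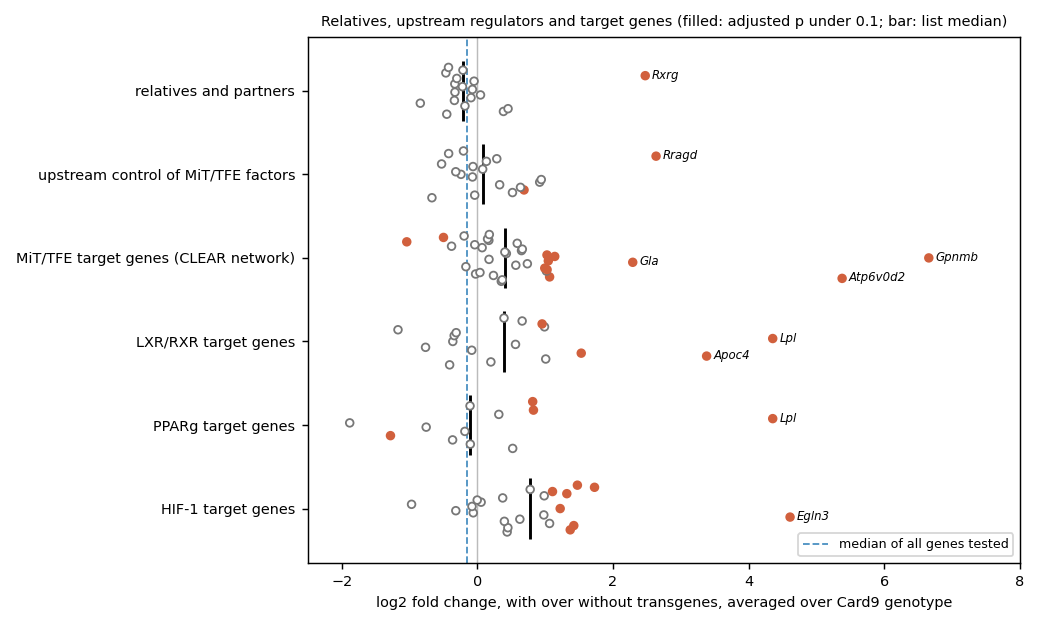
Averaged transgene log2 fold change of each tested gene in 6 lists, 1 point per gene, with filled points past an adjusted p of 0.1, a bar at each list's median and a dashed line at the median of all genes tested (−0.15). The medians run from −0.22 for relatives and partners to 0.78 for HIF-1 targets, and the named points are genes that passed with a log2 fold change above 2.

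The genes whose log2 level followed each factor most closely are a description over the 16 libraries, which share depth and cell mixture and fall into 2 sets by transgenes, so Pearson's r is given within the 8 libraries with and the 8 without transgenes. *Tfe3* was followed by *Atp6v0a2*, a proton pump subunit gene (0.99 and 0.96), *Dnm2* (0.98 and 0.96) and *Tnfrsf1b* (0.98 and 0.95). *Tfeb* was followed by *Taf5l* (0.99 and 0.91), *Sart1* (0.98 and 0.95) and *Snx9* (0.97 and 0.94). *Tfeb* and *Tfe3* also followed each other (0.89 and 0.81). *Hif1a* was followed by *Adora1*, an adenosine receptor gene (0.90 and 0.75), *Cdk18* (0.82 and 0.75) and *Il3ra* (0.96 and 0.39), which all rose with the transgenes (averaged log2 fold changes 3.43, 2.84 and 2.54). *Bhlhe40* was followed by *Galns*, a lysosomal sulfatase gene (0.95 and 0.83) and *Nbl1* (0.94 and 0.83). *Mitf* was followed by *St6gal1* (0.83 and 0.95), *Abcb1b* (0.89 and 0.78) and *Nrp1* (0.86 and 0.75), and *Rxra* by *Trim28* (0.90 and 0.91), *Ppp6r1* (0.82 and 0.98) and *Cic* (0.92 and 0.90).

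The scarce factors had *Ccl22* (0.90 and 0.54), *Dpp4* (0.63 and 0.69) and *BC024063* (0.95 and −0.20) nearest to *Tfec*, *Il33* (0.88 and 0.76), *Unc119* (0.42 and 0.88) and *S1pr5* (0.66 and 0.94) nearest to *Pparg*, and *Rnf25* (0.72 and 0.83), *Gm49760* (0.72 and 0.80) and *F2rl2* (0.53 and 0.85) nearest to *Nr1h3*. *BC024063* followed *Tfec* in the libraries with transgenes, where *Tfec* rested on 5 to 16 reads, and not in those without. This difference in r was not tested. Because *Ccl22* and *Dpp4* are known from dendritic cells, 7 dendritic cell markers were summed after these values were seen. They came to 148 to 369 CPM without and 114 to 241 CPM with transgenes, all were detected in every library, and 2 of the 6 that could be tested fell on average. Their part in the *Tfec* difference was not tested.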

How the data were processed

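The authors deposited 1 merged table of raw read counts per gene, without normalization, for 16 libraries. Per the labels and the study's methods, reads were aligned to mm10 with HISAT2, handled with Samtools and counted with HTSeq, and the authors tested them with DESeq2. Samtools also served for a quality filter. Its settings and the strand setting of the counting are not given in the sources used here, so reads of a gene and of a gene overlapping it cannot be told apart: *Gm15531* in *Mitf* had 0 to 18 counts per library, *Gm15283* at *Hif1a* 0 to 52, *Gm13783* at *Nr1h3* 0 to 5 and *Gm44079* at *Pparg* 0 to 2.

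Genes were filtered with filterByExpr (minimum count 10), scaled by TMM and tested in 1 edgeR quasi-likelihood fit over all 16 libraries, with Benjamini-Hochberg adjustment over 14513 genes at a threshold of 0.1 (R 4.3.3, edgeR 4.0.16). The standard error is the log2 fold change over the square root of F, and the 95% intervals use the degrees of freedom of that fit. Levels are CPM, or CPM per kb of exon union (GENCODE M21) where genes are compared, and log2 CPM used a prior count of 2. DESeq2 1.42.0 and a surrogate variable from sva 3.50.0 served as alternatives, beside other filters, DESeq2 size factors, a replicate block, fits of only the groups compared, a threshold of 0.05 and each library left out. The fit was also run on simulated counts drawn independently for each library. Those counts hold no shared deviations of same-numbered libraries, so the run cannot show how the fit handles them. Depth was 2970148 to 19333325 reads per library, and counts per library bound the precision of *Tfec*, *Pparg* and *Nr1h3*. Libraries of 1 genotype differed beyond sampling noise in all 24 pairs (lowest chi-square per degree of freedom 6.93), so none was counted as a copy. Deviations of same-numbered libraries from their genotype means correlated at 0.27 to 0.71 between WT and 5xFAD and 0.13 to 0.73 between *Card9*-/- and *Card9*-/-5xFAD, above 0.1 in 4 of 4 pairs each, and at −0.71 to 0.61 across *Card9* backgrounds. The pairing comes from these values and not from the labels, so a replicate block within each background was added after seeing the data.

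Named genes are the 9 factors, *Card9*, the 3 genes of highest r with each factor, relatives that passed in any contrast and up to 4 genes of lowest adjusted p per list; relatives sharing a family sum and the genes said to be named after their values were seen come on top. A gene that this rule names for *Bhlhe40* is not reported here. The factors and lists were chosen with earlier results of these data known. Markers were also summed for other cells, and with the transgenes on average 1 of 5 monocyte, 2 of 7 neutrophil, 1 of 6 endothelial and 2 of 12 early response genes fell, 2 of 6 astrocyte genes rose, and 0 of 5 T or NK cell, 2 B cell, 4 oligodendrocyte, 3 neuron and 5 choroid plexus genes passed.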

Additional observations from a re-analysis of the deposited data

Results flagged for a closer look

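Within genotypes, 3 of the 36 sets of 4 values (9 factors in 4 genotypes) held a library whose gap to its nearest neighbour was over 0.829 of the range of the set. For independent, normally distributed values, chance gives about 1 such set in 20. Levels in CPM need not follow that form, and the factors are correlated, so the rate is a rough guide. *Tfe3* in 5xFAD replicate 4 was at 154 CPM, above 59.9 to 69.6 CPM in the other 5xFAD libraries. *Tfec* in WT replicate 1 was at 1.58 CPM, below 3.96 to 4.28 CPM in the other WT libraries. *Nr1h3* in 5xFAD replicate 1 was at 0.758 CPM, below 1.62 to 1.78 CPM in the other 5xFAD libraries.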

How the results depend on the processing

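The averaged transgene effects of *Hif1a* (log2 fold change 1.44 to 1.63), *Bhlhe40* (1.6 to 1.99) and *Pparg* (−1.59 to −1.26) passed without any 1 library in 16 of 16 fits, and that of *Tfec* (−1.44 to −0.98) in 15 of 16. In 5xFAD against WT, the count of factors that passed (1) was 3 by DESeq2, 2 with only the groups compared, 4 with 1 surrogate variable, 3 without both libraries of lowest depth and 1 to 2 with each library left out. In *Card9*-/-5xFAD against *Card9*-/- the count (1) was 0 without a filter and 0 with only the groups compared (*Hif1a* adjusted p = 0.118 and 0.245), 2 by DESeq2, 4 with the surrogate variable, 2 without both libraries of lowest depth and 0 to 2 with each library left out. On average over *Card9* the count (4) was 2 under a filter of 10 counts in each library, where *Tfec*, *Pparg* and *Nr1h3* were not tested, 5 by DESeq2 and 5 without both libraries of lowest depth (*Tfe3* −0.60, adjusted p = 0.0788, and −0.68, adjusted p = 0.0848), 6 with the surrogate variable (*Tfe3* −0.63, adjusted p = 0.0112, and *Tfeb* −0.52, adjusted p = 0.0575) and 4 to 5 with each library left out. The averaged *Card9* count (0) was 1 with the surrogate variable (*Pparg* −1.10, adjusted p = 0.0797). The cause was not tested.

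With the replicate block within each *Card9* background, the counts were 6, 6 and 7 in the 3 transgene contrasts and 0 in the interaction, where *Tfec* (−0.0119), *Tfe3* (0.0231) and *Bhlhe40* (−0.15) reversed; outside the calls that these counts gained, it changed no other call. Over all genes it gave 2322, 2966 and 6078. Same-numbered replicates 1 and 4 correlated negatively across *Card9* backgrounds. With 1 replicate block shared by all 16 libraries, *Tfe3* passed on average (−0.70, adjusted p = 0.0920), *Bhlhe40* reversed in *Card9*-/-5xFAD against 5xFAD (−0.0589) and in the averaged *Card9* effect (−0.0968), and *Tfec* in the interaction (−0.0119). No other call of a factor changed with it.

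Other effects that reversed were small. Without both libraries of lowest depth they were *Mitf* in *Card9*-/-5xFAD against *Card9*-/- (−0.0258), *Rxra* in the averaged transgene effect (0.00958), *Tfec* in *Card9*-/-5xFAD against 5xFAD (−0.18), the averaged *Card9* effect (−0.0586) and the interaction (−0.25), and *Pparg* in the interaction (−0.12). Under the filter of 10 counts in each library they were *Rxra* in the averaged transgene effect (0.0224), *Tfeb* (−0.0038) and *Bhlhe40* (−0.0530) in *Card9*-/-5xFAD against 5xFAD, and *Bhlhe40* in the averaged *Card9* effect (−0.14). The averaged *Card9* effect of *Bhlhe40* was −0.0612 with DESeq2 size factors and −0.0862 with the surrogate variable, which also gave −0.0825 in *Card9*-/-5xFAD against 5xFAD and 0.00509 for *Tfe3* in the interaction. DESeq2 gave −0.00079 for *Tfec* in *Card9*-/- against WT.

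With each library left out, signs turned for *Rxra* in 5xFAD against WT (−0.0349 to 0.20), in the averaged transgene effect (−0.20 to 0.00512) and in *Card9*-/-5xFAD against 5xFAD (−0.28 to 0.13), for *Nr1h3* (−0.31 to 0.0411) and *Mitf* (−0.14 to 0.17) in *Card9*-/-5xFAD against *Card9*-/-, and for *Tfec* in *Card9*-/- against WT (−0.16 to 0.18). They also turned in *Card9*-/-5xFAD against 5xFAD for *Tfeb* (−0.20 to 0.36), *Bhlhe40* (−0.32 to 0.47) and *Tfec* (−0.16 to 0.57), in the averaged *Card9* effect for *Bhlhe40* (−0.22 to 0.17), *Tfec* (−0.0824 to 0.32) and *Tfeb* (−0.0027 to 0.27), and in the interaction for *Tfeb* (−0.40 to 0.30), *Tfe3* (−0.19 to 0.34), *Pparg* (−0.0222 to 0.50), *Tfec* (−0.23 to 0.51) and *Bhlhe40* (−0.20 to 0.59).

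Over all genes, the counts that passed in 5xFAD against WT, in *Card9*-/-5xFAD against *Card9*-/- and on average (304, 286 and 1647) were 565, 812 and 2460 by DESeq2, 2050, 2500 and 5708 with the surrogate variable, 171, 148 and 1149 under the filter of 10 counts in each library, 208, 185 and 1070 without a filter, 582, 519 and 3017 without both libraries of lowest depth, and 96 in the second contrast with only the groups compared. In the averaged *Card9* effect, 4 genes passed by edgeR, 106 by DESeq2 (of 2623 genes given an adjusted p) and 679 with the surrogate variable. A fit of only the groups compared was not run for averaged effects or the interaction. The median of all genes shifted by 0.14 to 0.17 in the transgene contrasts under the filter of 10 counts in each library and by 0.10 to 0.12 with DESeq2, and the effects are not corrected for it.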
